A study of Mus musculus with 18 samples.

Results

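Tbx5, Tbx20, Tbx2, Tbx3 and Tbx1 are 5 T-box genes of the developing heart, taken by symbol from a table of 23337 genes, and all 5 were found. The cells were mouse embryonic stem cells of the TBX5-FTA line (strain A2Lox.cre), untreated and differentiated toward heart muscle. Libraries of polyadenylated RNA were made from 500000 cells a sample, 3 for each of 6 harvests. The harvests at day 5 (D5), D6 and D7 are labelled cardiac progenitor cells, and those at D8, D10 and D15 immature cardiomyocytes. All 18 libraries share the line, the strain and the absence of treatment, and the labels separate them by day and stage alone. What FTA abbreviates is not given in the sources used here, and the counts do not separate alleles of Tbx5. Nothing in the labels says that same-day libraries came from separate cultures, so p-values measure the spread between these libraries, which may be technical.

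T-box proteins bind DNA through a shared domain and act as activators, repressors or both, often on the same short sites. In the embryonic heart TBX5 and TBX20 work with NKX2-5 and GATA4 to drive chamber muscle genes. TBX2 and TBX3 hold the same chamber genes down in the atrioventricular canal and the conduction system, and TBX1 keeps pharyngeal and outflow tract progenitors dividing and undifferentiated. Loss of one TBX5 copy causes Holt-Oram syndrome in people, with heart and forelimb defects.

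Promoter sequences (RefSeq, GRCm38.p6; from 250 bases before to 50 after the start) were at hand for 2 of the 5 genes, Tbx20 and Tbx1. No others were at hand, and these 2 genes are the most and the least abundant of the 5. Both are printed 5′ to 3′ on the strand of the gene, which is the minus strand, with each CpG in capitals.
Tbx20, chr9:24774254-24774553: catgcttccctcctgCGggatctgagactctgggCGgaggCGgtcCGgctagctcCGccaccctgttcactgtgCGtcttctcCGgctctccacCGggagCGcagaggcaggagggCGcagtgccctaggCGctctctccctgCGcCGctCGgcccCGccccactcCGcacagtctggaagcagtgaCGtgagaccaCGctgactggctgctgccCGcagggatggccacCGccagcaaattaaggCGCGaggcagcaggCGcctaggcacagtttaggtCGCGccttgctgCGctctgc
Tbx1, chr16:18588850-18589149: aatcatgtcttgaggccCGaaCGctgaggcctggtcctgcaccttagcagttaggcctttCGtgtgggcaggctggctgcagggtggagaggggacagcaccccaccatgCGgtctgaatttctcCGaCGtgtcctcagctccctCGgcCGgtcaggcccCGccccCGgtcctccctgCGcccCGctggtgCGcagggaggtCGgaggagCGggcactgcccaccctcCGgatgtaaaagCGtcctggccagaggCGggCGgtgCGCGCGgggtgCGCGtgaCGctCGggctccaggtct
Each of the printed windows held 26 CpGs, against a median of 7 over 32851 promoters, and 83.1% of promoters held fewer. The GC content was 68.3% for Tbx20 and 69% for Tbx1. A second Tbx1 start, chr16:18590622-18590921, had 16 CpGs, more than 67% of promoters, and 58.3% GC. Both strands of the 3 windows were searched for the core of T-box sites, GGTGTG, which 19% of all promoters hold. The core of sites for GATA factors was spelled GATAA and is held by 25.4%, and the site of GLI factors was spelled TGGGTGGTC and is held by 0.253%. No match was in the 3 windows, which says only that these letters are not there. The counts do not show which Tbx1 start was used, and the RNA data do not bear on what binds there.

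Across the 6 days, 4 of the 5 genes passed the filter on low counts, and 13116 genes did in all. All 4 differed between days (adjusted p = 1.13e-16 to 1.56e-05), as did 88.9% of genes tested, so a change by itself sets none of them apart. Levels below are CPM, each count divided by the effective size of its library. Fold changes are log2 values, with p-values from edgeR's quasi-likelihood F test adjusted over all genes tested. The standard error given with a fold change was derived from that test, as its absolute size divided by the square root of F. At D15 against D5, Tbx5, Tbx20 and Tbx2 were higher and Tbx3 was lower, where 40.3% of genes were called higher and 37.7% lower (78% in either direction).

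**Figure D1:**
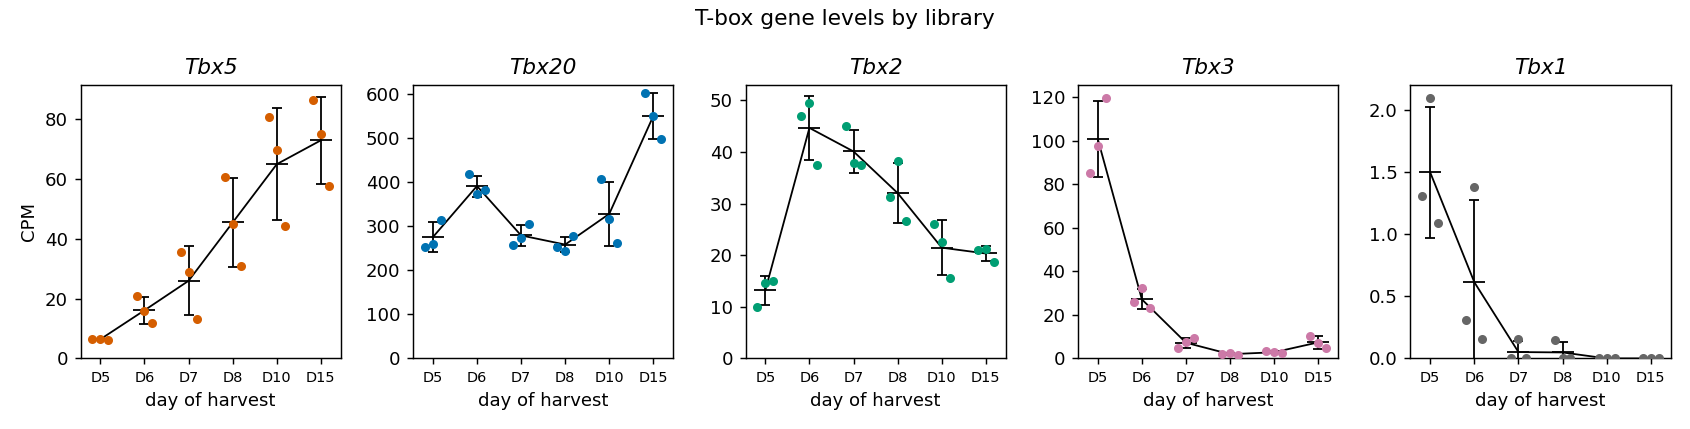
CPM of each of the 5 T-box genes (vertical axes, each with its own scale from 0) by day of harvest (horizontal axis), with points for the 3 libraries of a day and bars for the mean ± SD. Tbx5 climbed to a mean of 73.0 CPM at D15, Tbx2 was highest at D6, Tbx3 was highest at D5 and lowest at D8, and Tbx1 had no count after D8.

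Tbx5, an activator of atrial, left ventricular and conduction genes, had 6.55, 6.57 and 6.14 CPM in the 3 D5 libraries. At D6 it had 20.8, 15.8 and 11.7 CPM, and at D7 35.7, 28.9 and 13.3 CPM. At D8 it had 60.6, 44.8 and 31.1 CPM, at D10 80.9, 69.8 and 44.3 CPM, and at D15 86.3, 75.0 and 57.6 CPM. Every D15 library lay above every D5, D6 and D7 library, whereas neighbouring days from D6 on overlapped. Tbx5 was 11.4-fold higher at D15 than at D5 (log2 difference 3.51 ± 0.41, adjusted p = 3.37e-06). The mean of D8, D10 and D15 stood 2.11 ± 0.22 log2 units above that of D5, D6 and D7 (adjusted p = 9.63e-07), a comparison in which 77.1% of genes were called. By mean level the days ran D15, D10, D8, D7, D6 and D5 from high to low, and of the neighbours in that order only D6 and D5 differed (1.33 ± 0.47, adjusted p = 0.0451). That single call was lost without the low-count filter (adjusted p = 0.0578), with limma-voom (adjusted p = 0.153) and on leaving out any of the 3 D5 libraries or the first or second D6 library (1.10 to 1.35, adjusted p = 0.0844 to 0.154). It held under the other alternatives, among them DESeq2 (adjusted p = 0.00249) and edgeR on D5 and D6 alone (adjusted p = 7.83e-06). Over other intervals the differences were 2.84 ± 0.42 at D8 against D5 (adjusted p = 5.96e-05; 62.3% of genes called) and 1.33 ± 0.34 at D10 against D7 (adjusted p = 0.00536; 53.9% of genes called).

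Tbx20, which activates and represses in developing muscle and endocardium, was the most abundant of the 5 genes per kilobase of exon on every day. It had 252.5, 259 and 314 CPM at D5, 418, 373 and 382 CPM at D6, and 258.5, 273 and 306 CPM at D7. It had 253, 245 and 277.5 CPM at D8, 407, 315 and 262 CPM at D10, and 602, 551 and 498 CPM at D15. D6 formed a first peak above every library of the days on either side, and D15 a second peak above every other library. Tbx20 was 2.0-fold higher at D15 than at D5 (1.00 ± 0.13, adjusted p = 5.44e-06). The D15 peak exceeded the D6 peak by 0.49 ± 0.13 (adjusted p = 0.00341), a pair of days between which 75.1% of genes were called. No other pair of neighbours in its order of levels (D15, D6, D10, D7, D5, D8) passed the test, where D10 against D6 and D7 against D5 called 62.6% and 52.3% of genes. Between the stages as labelled it was higher by 0.21 ± 0.08 in cardiomyocytes (adjusted p = 0.0208), and without the first D7 library by 0.19, with an adjusted p of 0.05.

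Tbx2, a repressor of chamber genes induced by BMP signals, had 9.90, 14.7 and 15 CPM at D5, 47.0, 49.5 and 37.6 CPM at D6, and 45.0, 37.8 and 37.5 CPM at D7. It had 31.4, 38.2 and 26.6 CPM at D8, 26.1, 22.6 and 15.7 CPM at D10, and 21.0, 21.3 and 18.7 CPM at D15. The D5 libraries lay below those of every other day, and the later days descended from D6, with overlap between neighbouring days except D8 and D10. It was 1.54-fold higher at D15 than at D5 (0.62 ± 0.19, adjusted p = 0.00401) and lower at D15 than at D8 (-0.66 ± 0.17, adjusted p = 0.00159), where 64.4% of genes were called. From high to low the days ran D6, D7, D8, D10, D15 and D5, and of those neighbours D10 against D8 and D15 against D5 differed. The stage difference was small (-0.25 ± 0.10, adjusted p = 0.0241). It missed the threshold on leaving out any of 5 single libraries, the libraries listed second and last at D5, second at D6, first at D7 and last at D10 (-0.22 to -0.19, adjusted p = 0.0506 to 0.0641).

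Tbx3, the repressor that keeps the sinus node free of chamber genes, moved most among the tested members. It had 85.1, 97.4 and 120 CPM at D5, 25.9, 32.2 and 23.3 CPM at D6, and 4.76, 7.41 and 9.46 CPM at D7. It had 1.89, 2.32 and 1.62 CPM at D8, 3.22, 2.76 and 2.51 CPM at D10, and 10.4, 6.91 and 4.80 CPM at D15. Each day to D8 lay wholly below the day before it, and every D15 library lay above every D8 and D10 library. From high to low the days ran D5, D6, D15, D7, D10 and D8. Of those neighbours D6 against D5, D15 against D6 (-1.89 ± 0.22, adjusted p = 7.7e-08) and D10 against D7 (-1.33 ± 0.32, adjusted p = 0.00133) differed. Tbx3 was 51.7-fold lower at D8 than at D5 (-5.69 ± 0.25, adjusted p = 8.33e-15), then 3.76-fold higher at D15 than at D8 (1.91 ± 0.35, adjusted p = 5.11e-05). At D15 it remained 13.8-fold below D5 (-3.78 ± 0.21, adjusted p = 8.91e-14), and D15 against D7 did not pass (0.03 ± 0.27, adjusted p = 0.936), where 70.2% of genes were called. Exons of Tbx3 overlap the antisense gene Tbx3os1 over 115 bases. Strand use in counting is not given in the sources used here, so reads there may come from either gene.

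Tbx1, the pharyngeal and outflow tract factor, was close to the limit of detection. Its counts were 9, 15 and 8 in the D5 libraries, 2, 9 and 1 at D6, 0, 1 and 0 at D7 and 1, 0 and 0 at D8, with none in the 6 libraries of D10 and D15. The D5 counts overlapped only those of D6. The summed counts were 12 at D6 and 32 at D5, a CPM ratio of D5 over D6 of 2.42 (95% interval 1.21 to 5.16, counting error only). With 0 counts each, D10 was at least 8.73-fold and D15 at least 8.77-fold lower than D5, taking a floor of 3 counts over the group. Fitted without the filter, with 18070 genes, Tbx1 differed across days (adjusted p = 3.68e-06) and at D15 against D5 (adjusted p = 1.08e-04), and D6 against D5 missed the threshold (adjusted p = 0.253).

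The genes split by day of change. At D6 against D5, where 34.6% of genes were called, all 4 tested members were called, with Tbx2 higher by 1.76 ± 0.17 (adjusted p = 1.23e-08), Tbx20 by 0.51 ± 0.13 (adjusted p = 0.00819) and Tbx5 as above, and Tbx3 lower (-1.89 ± 0.17, adjusted p = 1.16e-08). At D7 against D6, where 30.4% were called, Tbx3 (-1.92 ± 0.22, adjusted p = 6.51e-07) and Tbx20 (-0.49 ± 0.13, adjusted p = 0.0121) were lower. The Tbx20 call there was lost without the first D7 library (-0.43, adjusted p = 0.0591). At D8 against D7, where 24.2% were called and the labelled stage changes, Tbx3 was lower (-1.88 ± 0.34, adjusted p = 2.76e-04) and the other 3 missed the threshold. At D10 against D8, where 31.2% were called, Tbx2 was lower (-0.57 ± 0.17, adjusted p = 0.0123), and this was lost without the second D8 library (-0.43, adjusted p = 0.0911) or the third D10 library (-0.40, adjusted p = 0.0734). At D15 against D10, where 50.8% were called, Tbx3 (1.36 ± 0.33, adjusted p = 0.00135) and Tbx20 (0.74 ± 0.13, adjusted p = 2.54e-04) were higher. Tbx5 had no called step after D6, and its step estimates were 0.69 ± 0.39, 0.82 ± 0.35, 0.51 ± 0.33 and 0.16 ± 0.32 in order of day. Missing the threshold does not show that Tbx5 was level at these steps. Taken by place in the table, Tbx5 rose at every step in the first, the second and the third libraries. From D10 to D15 it went from 80.9 to 86.3 CPM in the first, 69.8 to 75.0 in the second and 44.3 to 57.6 in the third. Whether libraries at the same place belong together is not given, and the rise by place was not tested.

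**Figure D2:**
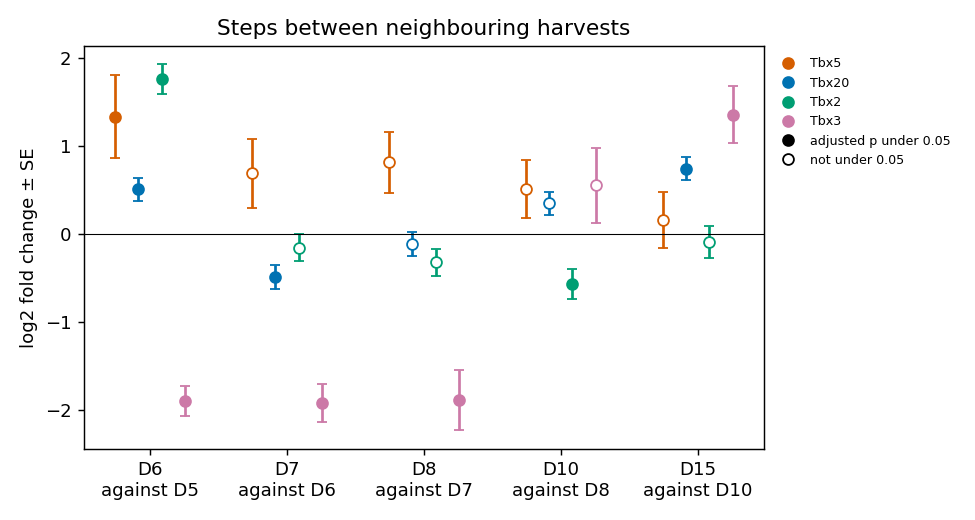
Log2 fold change of each tested T-box gene (vertical axis, ± SE) for each step between neighbouring harvests (horizontal axis), filled where the adjusted p was under 0.05. The 3 steps to D8 are each about -1.9 for Tbx3, and the later steps of Tbx5 have open symbols and wide bars.

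Libraries of the same day differed widely in Tbx5. The within-day SD of Tbx5 was 0.45 on the log2 CPM scale, above 88.8% of genes tested and above 99.8% of the 500 genes nearest to it in level, whose median was 0.16. Tbx20 had a within-day SD of 0.17, Tbx2 of 0.26 and Tbx3 of 0.34, at the percentiles 94.6, 92.4 and 84.4 among their own 500 neighbours in level. The third library in the table's order had the lowest Tbx5 on 6 of 6 days, and the same libraries were lowest for the sarcomere genes Tnnt2 and Myh6 and for Nkx2-5.

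Within a day, Tbx5 stood in the same order as the heart muscle markers. The summed CPM of 10 cardiomyocyte markers (Tnnt2, Tnni3, Tnni1, Actn2, Myh6, Myh7, Ttn, Myl7, Myl4 and Ryr2) ranged from 4823 to 8184 at D15 and from 326 to 395 at D5. Of the 18 pairs of same-day libraries, 17 had the same order for Tbx5 as for this sum, and 15 of 15 did from D6 on. These pairs are not independent. The pairs of a day share its 3 libraries, and the third-listed library had the lowest Tbx5 on 6 of 6 days. The comparison of orders was chosen after the values were seen. Over 13106 genes the median was 9 of 18 pairs, and 87 genes (0.664%) had 17 or more. The ratio of Tbx5 to the marker sum varied by 0.14 (within-day SD, log2), against 0.46 for Tbx5 itself. A ratio less variable than the gene was seen for 391 of 12148 genes with counts in every library (3.22%), and only 5 had a ratio as steady as that of Tbx5 or steadier. Besides Tbx5 these were Hspb7, Myom1, Smyd1 and Sh3bgr, of which Myom1 encodes an M-band protein and Smyd1 a muscle methyltransferase. Tbx20 shared the order of the marker sum in 9 of 18 pairs, Tbx3 in 10 and Tbx2 in 12, while Nkx2-5 shared it in 16. With the other 8 marker sums Tbx5 shared the order in 3 (fibroblast) to 13 (neural) of 18 pairs. In bulk RNA, fewer cells of a type and less RNA per cell cannot be told apart, and the part of the muscle share in the level of Tbx5 was not tested.

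Per 100 CPM of cardiomyocyte markers, Tbx5 had 1.77 ± 0.11 CPM at D5, 1.93 ± 0.12 at D6, 2.01 ± 0.17 at D7, 2.25 ± 0.29 at D8, 1.92 ± 0.23 at D10 and 1.16 ± 0.09 at D15 (mean ± SD of 3 libraries). At D15 every library (at most 1.22) lay below every library of the other days (at least 1.66). This holds for the summed list and not for each marker. Per 100 CPM of the troponin gene Tnnt2 alone, Tbx5 had 5.40 ± 0.35 CPM at D5, 6.02 ± 0.66 at D6, 8.65 ± 1.26 at D7, 12.8 ± 0.97 at D8, 12.3 ± 0.68 at D10 and 8.18 ± 0.24 at D15. On that marker the ratio was highest at D8 and D10, and every D15 library lay above every D5 and D6 library. Per 100 CPM of the summed cardiomyocyte markers, Tbx20 had 76.7 ± 17.3 CPM at D5, 49.3 ± 15 at D6 and 25.6 ± 14.1 at D7. On that sum it had 14.4 ± 7.59 CPM at D8, 9.97 ± 2.30 at D10 and 8.88 ± 1.48 at D15. Tbx20 had its early level while the marker sum was low.

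**Figure D3:**
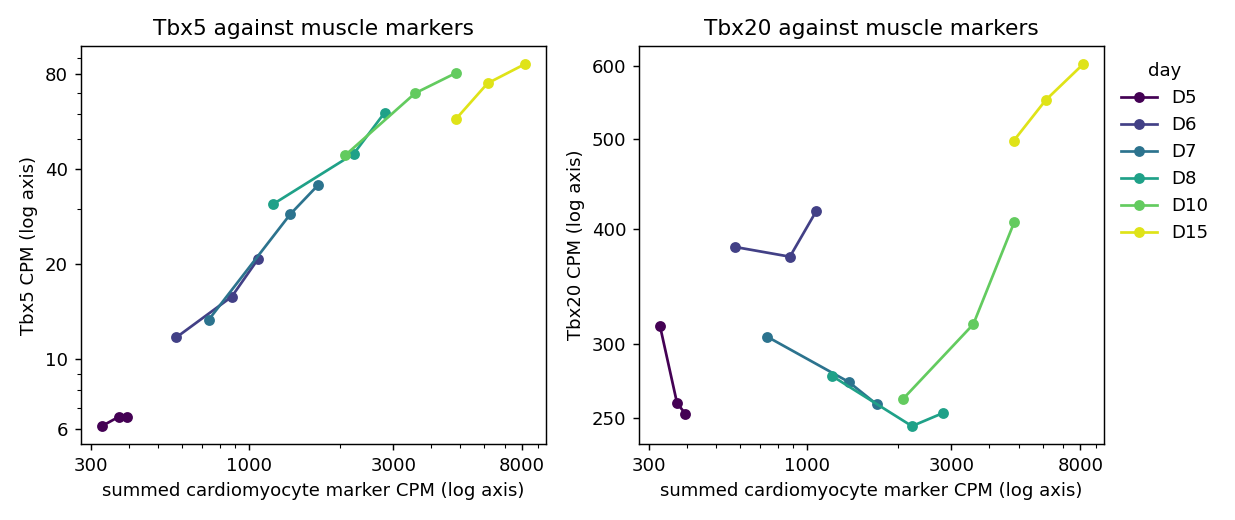
CPM of Tbx5 (left) and Tbx20 (right) against the summed CPM of 10 cardiomyocyte markers, both on log axes, with a point for each of the 18 libraries and a line joining the 3 libraries of a day. The Tbx5 points of D6 to D10 lie near a rising band and those of D15 below it. The Tbx20 lines of D5 and D7 fall as the markers rise, and those of D10 and D15 climb.

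Markers of other cell types were detected on all days. At D15 and D5 the summed fibroblast and matrix markers (9 genes) were 43740 ± 4618 and 484 ± 18.8 CPM, the epicardium markers (8 genes) 2625 ± 67.5 and 389 ± 18.5 CPM, and the endothelium and endocardium markers (8 genes) 545 ± 55.2 and 145 ± 13.4 CPM. The 10 cardiomyocyte markers summed to 6386 ± 1693 and 364 ± 35.1 CPM, so matrix and epicardial markers rose along with those of muscle in the libraries labelled immature cardiomyocytes. At D15 against D5, 10 of 10 cardiomyocyte, 9 of 9 fibroblast, 7 of 8 epicardium and 6 of 8 endothelium markers were called higher. Over all genes tested 40.3% were called higher, and 1 endothelium marker was lower. None of the cardiomyocyte markers was at 0 on any day, and 1 fibroblast marker was at 0 on each day to D10. Smooth muscle markers (5 genes) were 1579 ± 109 CPM at D15 and 2726 ± 196 CPM at D5, with 2 called higher and 3 lower. Endoderm markers summed to 25.9 ± 30.2 and 14.6 ± 0.67 CPM, neural markers to 132 ± 7.32 and 265.5 ± 12.9 CPM, cardiac progenitor markers to 551 ± 40 and 312 ± 7.62 CPM, and pluripotency markers to 1.59 ± 0.63 and 4.18 ± 0.44 CPM at D15 and D5. Of those tested, 2 endoderm markers were called higher and 2 lower, and 2 progenitor markers higher and 1 lower. All 3 tested neural markers and the 1 tested pluripotency marker were lower. Pdgfra, also a fibroblast marker here, made up most of the progenitor sum (453 and 229 CPM). Isl1 of that list was lower at D15 (2.38 and 15.2 CPM) and Nkx2-5 higher (11.15 and 0.89 CPM). Nes made up nearly all of the neural sum (130.5 and 253.5 CPM). Tbx20 shared the within-day order of the 9 marker sums in 6 to 14 of 18 pairs, with 14 for endothelium, 13 for smooth muscle and 12 for progenitor markers. These 3 are the highest of the 9, and the counts over all genes were computed for the cardiomyocyte sum only. The ratios of Tbx20 to these 3 sums varied by 0.1775, 0.1896 and 0.1627 (within-day SD, log2), against 0.1738 for Tbx20 itself. The part of these cell types in the T-box levels was not tested.

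The balance among the 5 genes shifted over time, computed as each gene's share of their summed CPM per kilobase of exon. Tbx20 held the largest share on each day, with 52.7% ± 1.93 at D5, 62.1% ± 3.85 at D6, 53.6% ± 7.21 at D8 and 67.4% ± 1.85 at D15 (SD, n = 3). The Tbx3 share was 34.8% ± 1.33 at D5, 7.77% ± 1.16 at D6, 0.725% ± 0.12 at D8 and 1.60% ± 0.43 at D15. The Tbx2 share was 8.31% ± 1.23 at D5, 26.9% ± 2.05 at D7, 21.8% ± 3.41 at D8 and 8.26% ± 0.56 at D15. The Tbx5 share was 3.20% ± 0.52 at D5, 13.5% ± 5.69 at D7, 23.8% ± 6.17 at D8, 29.0% ± 2.46 at D10 and 22.7% ± 1.89 at D15. The sum itself was 43.6 ± 5.88 CPM per kilobase at D5 and 68.2 ± 8.18 at D15, and lay between 40.4 and 52.6 on the other days.

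**Figure D4:**
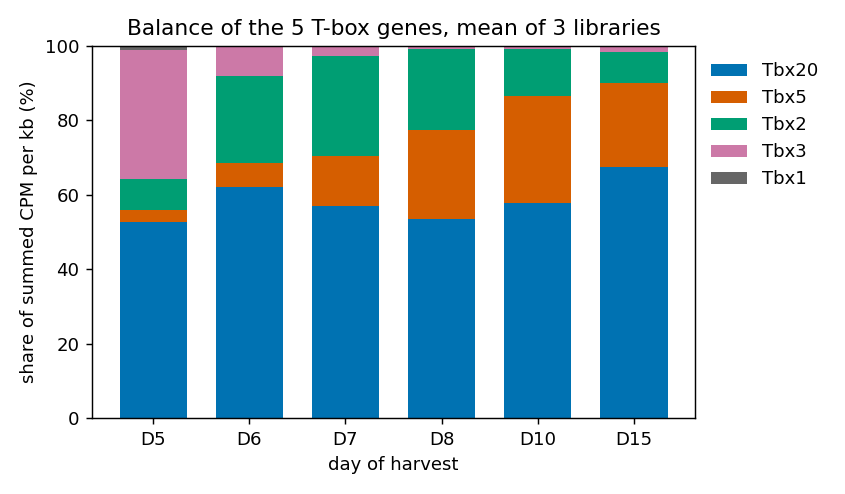
Share of each of the 5 genes in their summed CPM per kilobase (vertical axis, percent, mean of 3 libraries) by day of harvest. Tbx3 (pink) fills 34.8% at D5 and is a sliver of 0.725% at D8, and Tbx5 (orange) is widest at D10 with 29.0%.

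Ratios within a library do not depend on library scaling. All 10 ratios between pairs of the genes differed across days (permutation test of the F statistic, 100000 resamples, adjusted over the 10 pairs, adjusted p between 2e-05 and 0.036). The 2e-05 comes from the smallest p these resamples allow, 1e-05. The share of other gene pairs with differing ratios was not computed. As 88.9% of genes tested differed across days, differing ratios do not set these genes apart. The 4 ratios to Tbx1 rest on a Tbx1 count of 0 or 1 in each library from D7 on. That of Tbx3 to Tbx1 (0.036) lost its call on leaving out any of 8 single libraries, where it lay between 0.054 and 0.14. The mean count ratio of Tbx5 to Tbx2, activator over repressor, was 0.50 at D5, 0.35 at D6, 0.60 at D7, 1.38 at D8, 2.99 at D10 and 3.54 at D15. Per kilobase too, the mean share of Tbx5 was below that of Tbx2 at D7 and above it at D8, with overlapping libraries at D8. The ratio of Tbx5 to Tbx3 was 0.065 at D5, 21.9 at D8 and 10.1 at D15. The ratio of Tbx20 to Tbx5 was 42.2 at D5, 5.12 at D10 and 7.62 at D15.

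Tbx3 and Tbx5 are neighbours, on chromosome 5 of mm10 (GENCODE M21) at 119670669 to 119684724 and 119832668 to 119885219, both on the plus strand and 147943 bases apart. The 2 genes were called in opposite directions at D6 against D5 and at D15 against D5. After D8 both estimates were positive, with 0.51 ± 0.33 for Tbx5 and 0.55 ± 0.42 for Tbx3 at D10 against D8, and 0.16 ± 0.32 for Tbx5 and 1.36 ± 0.33 for Tbx3 at D15 against D10, of which only the last was called. Tbx20 lies on chromosome 9 (24718138 to 24774303, minus), Tbx2 on chromosome 11 (85832551 to 85841948, plus) and Tbx1 on chromosome 16 (18580979 to 18590671, minus). Between 99% and 100% of their 50-base stretches are unique among transcripts.

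The genes most like each member were found by the root mean square difference of centred log2 CPM over the 18 libraries, among 10246 candidates, with smaller values more alike. Nearest to Tbx5 were Ccdc141 (0.35), Glrx (0.35), the acetyl-CoA carboxylase gene Acacb (0.37), Rimkla (0.38) and Sh3bgr (0.38). Nearest to Tbx20 were the receptor genes Notch2 (0.18) and Lrp1 (0.20), the calcium channel subunit gene Cacnb3 (0.19), Gnptab (0.22) and Itprip (0.22). Nearest to Tbx2 were the homeobox gene Hlx (0.26), the integrin gene Itga9 (0.27), Tpcn1 (0.32), Id2 (0.32) and Heph (0.34). Nearest to Tbx3 were Lef1, a Wnt pathway factor, at 0.68 and Wscd2, Dpysl5, Polg and Slc2a3 between 0.77 and 0.89. The values were not scaled for the size of a gene's change, and Tbx3 moved most among the tested members. Its larger differences therefore do not show that no gene shares its course. Lef1 had 42.0, 17.8, 6.58, 2.81, 3.35 and 9.43 CPM from D5 to D15, and was also lowest at D8.

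Other T-box genes fell on both sides, with 12 in the table, 4 tested, and 1 higher and 2 lower at D15 than at D5. Tbx18, of the epicardium and sinus horn, had summed counts of 27, 383, 1571, 3122, 5177 and 2724 from D5 to D15 and was higher at D15 than at D5 by 6.94 log2 units (adjusted p = 1.41e-15). Its exons overlap another gene, D030062O11Rik, over 970 bases, and those of Eomes overlap Gm33460 over 118 bases. Eomes, which starts mesoderm and endoderm, had 129 counts at D5, 12 at D6, 4 at D7 and 0 afterwards, at least 35.4-fold lower at D15 than at D5 (adjusted p = 3.99e-08). T (brachyury), of the primitive streak, had 14 counts at D5 and 1 in all later libraries, and was not tested. Mga, which pairs with MAX, had 3971 counts at D15 and 5737 at D5 (-0.25, adjusted p = 0.00616). Tbx15 had 27 at D15 and 28 at D5 (0.22, adjusted p = 0.706). Tbx6 had 11 and 6 counts, Tbx4 7 and 14, Tbr1 3 and 4, Tbx21 0 and 4 and Tbx10 1 and 0 at D15 and D5, and Tbx19 and Tbx22 had none on either day.

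**Figure D5:**
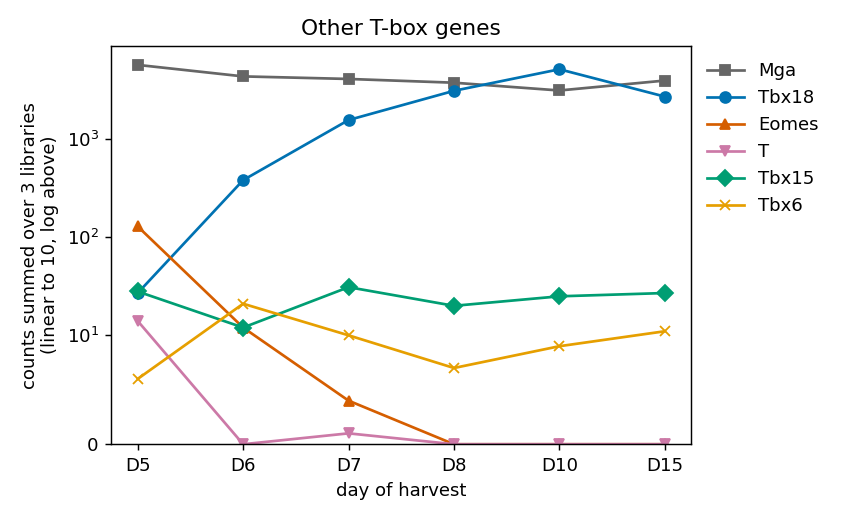
Counts summed over the 3 libraries of a day (vertical axis, linear to 10 and log above) for 6 other T-box genes by day of harvest. Tbx18 has its lowest sum at D5 (27) and its highest at D10 (5177), and Eomes and T are at 0 from D8 on.

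Genes of the T-box pathways are given as counts at D15 against D5, beside 5283 of 13116 genes higher, 4948 lower and an all-gene median of 0.03 (log2). Of 7 heart genes that TBX5 is known to activate, 5 were higher and none lower (median 2.20). The gap junction gene Gja5 had 212 counts at D15 and 0 at D5, at least 86.0-fold higher (adjusted p = 7.6e-11). The calcium pump gene Atp2a2 was higher by 2.20 (adjusted p = 2.71e-06) and the atrial myosin gene Myh6 by 8.12. Myh6 and Ryr2 of this list are also cardiomyocyte markers. Nppa, the atrial natriuretic peptide gene and a standard TBX5 target, had 44 counts at D15 and 59 at D5 (-0.14, adjusted p = 0.736), and its mean CPM was 5.57 ± 0.82 at its highest, on D10. Id2 missed the threshold as well (0.32, adjusted p = 0.088).

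Of 7 chamber genes that TBX2 and TBX3 are known to repress, 4 were higher and 2 lower (median 4.06), and Nppa and Gja5 are in this list too. The potassium channel gene Kcnj2 was higher by 4.54, whereas Cited1 (-4.18) and the connexin gene Gja1 (-0.35) were lower. Summed counts of Gja5 were 0 at D7, 6 at D8, 141 at D10 and 212 at D15. Tbx3 was at its lowest at D8 and D10, and Tbx2 was then between its D6 peak and its D15 level. At D15, where Gja5 was highest, Tbx3 was 3.76-fold higher than at D8. A link between these levels was not tested. Of 10 pacemaker and atrioventricular canal genes, 9 were tested, 5 were higher and 4 lower (median 3.06). The channel genes Cacna1g and Hcn4 were higher by 5.33 and 3.3, and Shox2, the sinus node homeobox gene, had 361 counts at D15 and 1 at D5, a ratio of D15 over D5 of 439 (interval 78.3 to 17390). Bmp2 and Msx2, which mark the atrioventricular canal, were lower (-3.63 and -6.71).

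Of 10 partners of heart T-box proteins, 5 were higher and 4 lower (median 0.12). Nkx2-5 was higher by 3.64 (adjusted p = 4.28e-04) and Gata6 by 1.67. Sall4, a zinc finger protein that acts with TBX5 in heart and limb, had 1 count at D15 and 2972 at D5 (ratio of D5 over D15 2443, interval 438 to 96530), and Smarcd3, of the BAF remodeller, was lower (-1.5). Isl1, a second heart field factor, was lower (-2.70) and Gata4 was higher by 0.54. Of 10 second heart field genes of the TBX5 and Hedgehog network, 8 were tested, 3 higher and 5 lower (median -1.41). Osr1 and the Hedgehog co-receptor gene Gas1 were higher by 6.26 and 2.69, and the ligand gene Bmp4 and the forkhead gene Foxf1a were lower (-1.56 and -4.46).

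Of 14 genes of the BMP pathway, which induces Tbx2, Tbx3 and Tbx20, 13 were tested, 4 higher and 8 lower (median -0.83). The ligand gene Bmp2 and the target Msx2, also pacemaker list genes, were lower as given above, and so was the signal transducer gene Smad4 (-0.83). The receptor gene Bmpr1a was higher by 1.25. Of 12 genes of the TBX1 network, 10 were tested, 2 higher and 7 lower (median -1.86). Fgf10, a growth factor of the second heart field, and the transcriptional cofactor gene Eya1 were lower (-3.49 and -5.13), and Wnt5a and Tcf21 were higher by 2.95 and 3.59. Fgf10 had 121 counts at D15 and 1661 at D5, with its highest sum, 1743, at D8, when Tbx1 had 1 count. Of 4 growth genes, 2 were higher and 1 lower (median 0.77). Mycn, which TBX2 is known to repress in the heart, was lower (-2.25, adjusted p = 4.02e-15), Ndrg1 and Cdkn2a were higher by 1.91 and 1.32, and Cdkn1a missed the threshold (0.23, adjusted p = 0.144).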

How the data were processed

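The deposited table holds raw counts per gene, whole numbers with no normalization by the authors. Reads were 50-base single-end from the TruSeq RNA v2 kit per the labels' protocols, and STAR and mm10 are named in the submitters' processing notes. Versions, the counting tool, the annotation and strand use are not given in the sources used here. Totals ran from 5257601 to 7122093 counts a library. Columns name the day but no replicate, so libraries are known by day and place in the table, and 3 further columns match no sample and were not used. Same-day libraries differed beyond counting noise (chi-square over degrees of freedom 2.27 to 9.67 in 18 pairs).

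Counts were fitted in edgeR 4.0.16 (R 4.3.3; robust quasi-likelihood, TMM, filterByExpr with a minimum count of 10, 1 mean per day over 18 libraries), with Benjamini-Hochberg adjustment over all 13116 genes tested and a threshold of 0.05. Ratios used log2 of counts plus 0.5. Intervals of count ratios are exact binomial at 95% and, like the floor of 3 counts, cover counting error only. Alternatives were RLE and upper quartile factors, no filter, at least 1 CPM in 3 libraries, limma-voom 3.58.1, DESeq2 1.42.0, only the days compared, a ratio offset of 2, and each library left out. The 5 genes and all lists were chosen with earlier results of these data known. Named genes are the 5 members, all other T-box genes, from each other list up to 4 with the smallest p at D15 against D5, and the 5 most alike per tested member. Nppa, Id2, Gja1, Shox2, Nkx2-5, Gata4, Hspb7, Myom1, Smyd1, Pdgfra and Nes were named after their values were seen. Overlaps with exons of other genes were looked up for the T-box genes only, so counts of other named genes may hold reads of an overlapping gene. A gene of the pathway lists is counted in them but not reported here by name.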

Additional observations from a re-analysis of the deposited data

How the results depend on the processing

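No paired analysis was possible because the columns carry no replicate number. Place in the table was not used in any fit, so spread shared by libraries at the same place stayed in the error of the tests. Outside the libraries left out, 223 of the values under alternatives kept direction and side of the threshold. The exceptions were Tbx5 at D6 against D5, which missed the threshold with no filter (1.34) and with limma-voom (1.29), and Tbx20 at D10 against D8, which passed it with DESeq2 (0.35, adjusted p = 0.0145). With 1 library left out, 443 values kept direction and side, 22 lost their call, 1 gained a call and 2 changed sign. Tbx5 at D6 against D5 ranged from 1.10 to 1.51, Tbx2 between the stages from -0.31 to -0.19 and at D10 against D8 from -0.74 to -0.40, and Tbx20 between the stages from 0.15 to 0.26 and at D7 against D6 from -0.56 to -0.43. Tbx20 at D10 against D8 ranged from 0.16 to 0.48 and was called without the third D10 library (adjusted p = 0.00318). The uncalled step at D15 against D10 changed sign for Tbx2 (-0.27 to 0.076) without the first D10 library and for Tbx5 (-0.052 to 0.35) without the third. The adjusted p of the Tbx3 to Tbx1 ratio ranged from 0.0087 to 0.14. The cause of these changes was not tested. No count of genes called moved by more than 1.36 times. Depth limits Tbx1, T and the other genes with few counts, whose ratios have wide intervals.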
